A study of Mus musculus with 6 samples.

Results

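The 10 mouse genes described here, *Bax*, *Bbc3*, *Pmaip1*, *Bid*, *Apaf1*, *Fas*, *Tnfrsf10b*, *Perp*, *Aen* and *Zmat3*, were chosen by symbol as P53 targets that promote apoptosis, among the 24421 gene symbols of the count table. They and the gene lists used below were chosen with earlier results of these data known. All 10 genes had counts in every library and passed the filter on low counts, which left 15584 genes to test. RNA came from heads of E9.0 mouse embryos, and each of the 6 libraries was made from 2 pooled heads of 1 genotype and similar somite number. The 3 WT libraries are labelled *Snrpb* +/+. The 3 mutant libraries (Het in the plots) are labelled *Snrpb* +/- and come from *Snrpb* ncc+/- embryos, in which the Wnt1-Cre2 transgene removes a loxP-flanked part of 1 *Snrpb* allele. The transgene is active in neural crest cells and in the neural tube. Cells outside these lineages keep both alleles, and RNA of all cells was sequenced together, so fewer cells of a type and less RNA per cell cannot be told apart. The labels give both CD1 and C57BL/6 as background, and the study describes a mix of both. Whether the WT embryos carried Cre or a loxP allele is not given in the sources used here.

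The tumor suppressor P53 is a transcription factor that, when stabilized, can stop the cell cycle or kill the cell. Its proapoptotic targets act along a pair of routes. In the mitochondrial route, members of the BCL2 family open the outer mitochondrial membrane, and the cytochrome c that is released assembles the apoptosome, which activates caspases. In the death receptor route, ligands outside the cell activate caspases through receptors such as FAS. Cranial neural crest cells and the neural tube are known as tissues in which excess P53 activity causes cell death.

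Library totals lay between 36378803 and 74909774 counts. *Snrpb*, which encodes the SmB protein of the spliceosome, had a mean level of 427 ± 12.2 CPM in WT and of 426 ± 12.5 CPM in mutants (counts scaled to library size, SD over n = 3 libraries here and below). Its log2 fold change, given as mutant over WT throughout, was -0.00 (95% interval -0.09 to 0.09, edgeR), so its level in whole heads does not check the genotype labels. Neural crest markers summed to between 319 and 386 CPM in WT and between 338 and 369 CPM in mutants. Neural tube markers summed to 806, 657 and 685 CPM in WT and to 655, 649 and 646 CPM in mutants. Thus all mutant libraries were below all WT libraries in this sum, and all 9 neural tube genes had a log2 fold change under 0 (median -0.13), none past the threshold. WT replicate 1 stood apart, with 32.1 CPM of visceral endoderm markers where the other 5 libraries had 6.54 to 8.52 CPM, and with the lowest sum of cardiac markers (6.84 CPM, against 21.9 to 79.0 CPM in the others). Over the groups, all 6 tested cardiac markers had log2 fold changes above 0 (median 0.65) and all 6 visceral endoderm markers below 0 (median -0.97), none past the threshold, with overlapping sums. In the same way 8 of 10 surface ectoderm markers were above 0 (median 0.11) and all 7 tested erythroid markers below 0 (median -0.08). Y-linked genes had mean levels (log2 CPM) from 3.93 to 4.88 in WT and from 4.78 to 5.82 in mutants, so the share of male tissue differed between pools and the groups overlapped. Surface ectoderm, endothelial, erythroid and myeloid markers overlapped between the groups in sum. The globin genes *Hba-a1* and *Hba-a2* were at 0 in all libraries, and whether reads shared by similar genes were counted was not tested. The part of these differences in the results below was not tested, except where a value without a library or with the Y-linked level as a covariate is given.

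The comparison of mutant with WT heads asks whether P53 targets that drive cell death are already altered in heads that look normal. Of the 10 genes, 4 were above the WT libraries in every mutant library, *Pmaip1*, *Tnfrsf10b*, *Bbc3* and *Bax*, by 1.17- to 1.48-fold in the means. Of the 4 genes of the BCL2 family (*Bax*, *Bbc3*, *Pmaip1* and *Bid*) 3 were among them, and of the 2 death receptors 1 was. *Apaf1*, also of the mitochondrial route, was not. Over all tested genes 8.32% were separated in this way, and a difference between the routes was not tested. *Zmat3*, *Aen*, *Fas* and *Bid* had means above WT with overlapping libraries, and *Apaf1* and *Perp* differed little in either direction. No single gene of the 10 was past an adjusted *P* of 0.05 in edgeR's quasi-likelihood test, where 1 of 15584 genes was (0.00642%).

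The 4 genes named first were also those at an unadjusted *P* under 0.05 with edgeR, all higher in mutants, while 4.34% of the tested genes were at that level and higher. None of the 10 was at that level and lower, where 4.09% of the tested genes were. In 8.32% of the tested genes every mutant library lay above every WT library, against 4 of the 10 genes, and none of the 10 had every mutant library below WT, where 6.92% did. For each of the 4 genes an exact permutation test over the libraries gave *P* = 0.1 (two-sided). This is the smallest that 3 against 3 libraries allow, and groups without overlap always give it. The test thus adds nothing to the separation of the groups. The median log2 fold change of the 10 genes was 0.24, and 8 were above 0, where the median of all tested genes was 0.0 and 50.2% were above 0. With DESeq2, the tool of the study, 2 of the 10 genes were past an adjusted *P* of 0.05, *Pmaip1* (adjusted *P* = 0.0226) and *Bax* (adjusted *P* = 0.0448), and 0.434% of the genes with an adjusted *P* were called higher. With edgeR's likelihood ratio test *Pmaip1* alone was past it (adjusted *P* = 0.039), and 0.27% of genes were called higher. The edgeR and DESeq2 *P*-values set each difference against the spread between pools of heads, which the fits estimate in part from other genes.

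**Figure D1:**
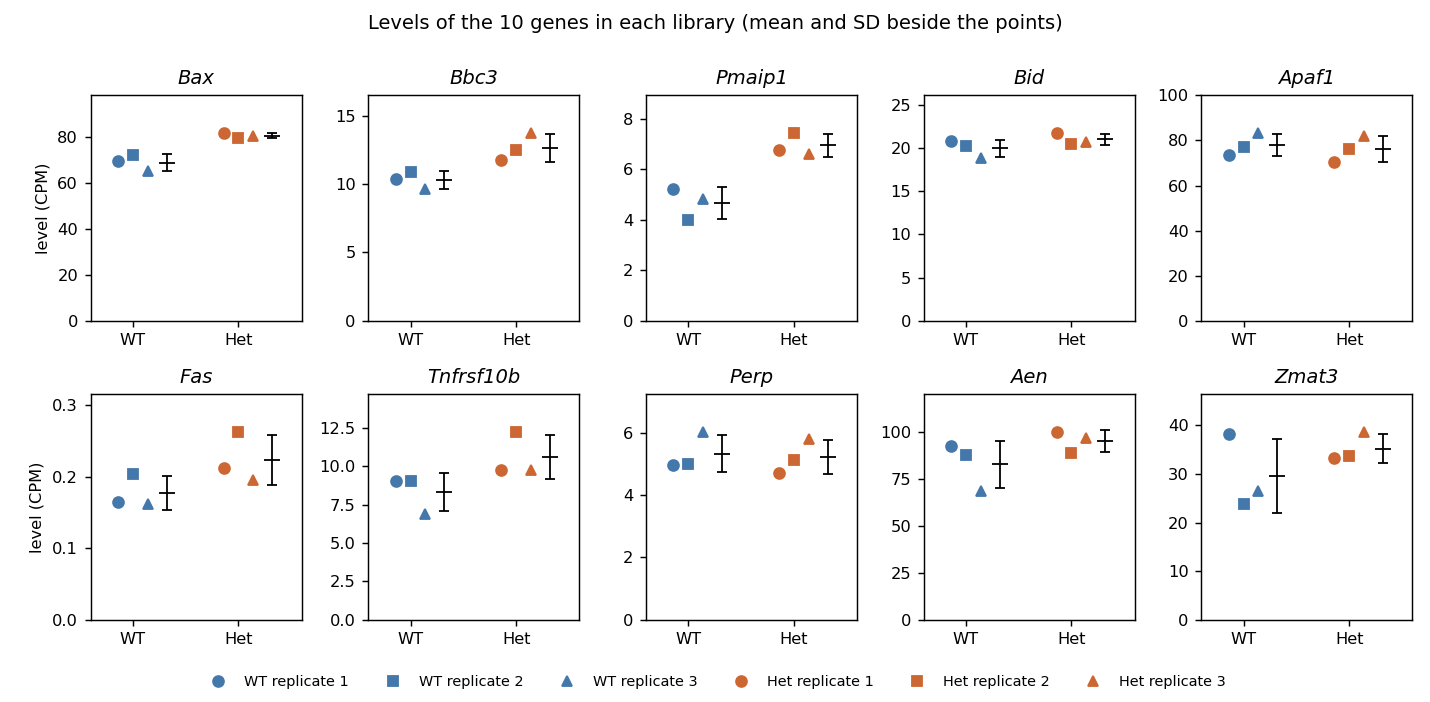
Level of each of the 10 genes in CPM (vertical axes from 0) in the 3 WT (blue) and 3 Het (mutant, orange) libraries, with the mean and SD beside the points. In *Bax*, *Bbc3*, *Pmaip1* and *Tnfrsf10b* all mutant points lie above all WT points, and in *Zmat3* WT replicate 1 lies among the mutant points.

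*Pmaip1* encodes NOXA, a BH3-only protein that binds and neutralizes MCL1. The gene is on chromosome 18, from 66458533 to 66465565 (mm10, as for all positions here), plus strand. WT libraries 1, 2 and 3 had 5.22, 3.99 and 4.84 CPM, and mutant libraries 1, 2 and 3 had 6.77, 7.46 and 6.62 CPM. The lowest mutant library was thus well above the highest WT library. Means were 4.68 ± 0.63 and 6.95 ± 0.45 CPM, with a log2 fold change of 0.58 (standard error 0.12, 95% interval 0.30 to 0.86, adjusted *P* = 0.309, edgeR). This was the highest fold change of the 10 genes, and it rests on 179 to 567 counts per library. Across all alternative settings, including those without 1 library, it ranged from 0.47 to 0.66.

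*Bax*, the effector that forms the pore in the outer mitochondrial membrane, is on the minus strand of chromosome 7 from 45461697 to 45466898. It had 2404 to 6034 counts per library. WT libraries were at 69.7, 72.0 and 65.0 CPM and mutant libraries at 81.9, 79.4 and 80.6 CPM. Mutant libraries were close to each other and all above WT. Means of 68.9 ± 3.58 and 80.6 ± 1.26 CPM gave a log2 fold change of 0.23 (standard error 0.05, 95% interval 0.12 to 0.34, adjusted *P* = 0.309, edgeR). It lay between 0.17 and 0.26 under all alternative settings. Exons of *Bax* share 192 bases with exons of *Gm45808*, on the same strand in the annotation used here. *Gm45808* has no row in the count table.

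P53 binds DNA as a tetramer, at a pair of half-sites close together. Promoters of the 10 genes were searched for exact matches to the p53 consensus half-site, which reads the same on both strands. RefSeq promoters (GRCm38.p6) from 250 bases before to 50 after a start were at hand for 6 of the 10 genes, in 9 windows, for *Bax*, *Bbc3*, *Bid*, *Apaf1*, *Fas* and *Aen*. A half-site was found in 3 of these 9 windows and in 8.36% of all 32851 windows. The 3 windows belong to 2 genes, *Bax* with 1 window and *Aen* with 2 windows that overlap and share the half-site. A pair of exact half-sites at most 13 bases apart was found for none of them, and in 0.0731% of all windows. The stretches that hold the half-sites are shown here with the half-site in capitals. The *Bax* half-site is at position -201 from the RefSeq start, in chr7:45467029-45467148, minus strand. The *Aen* half-site is at position -121 from one RefSeq start and 11 from another, within the gene as annotated by Gencode, in chr7:78895927-78895956, plus strand.
*Bax*: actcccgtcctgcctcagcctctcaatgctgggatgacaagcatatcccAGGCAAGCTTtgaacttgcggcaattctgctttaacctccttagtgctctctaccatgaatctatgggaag
*Aen*: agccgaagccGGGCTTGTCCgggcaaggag
A match is a run of letters and not a measured site, and sites farther from the start were not searched. Half-sites that differ from the consensus in any base were not counted, so pairs that hold such a half-site were missed.

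*Bbc3* encodes PUMA, a BH3-only protein that binds all antiapoptotic members of the BCL2 family. The gene is on chromosome 7 from 16308393 to 16318205, plus strand. It was at 10.4, 10.9 and 9.60 CPM in WT and 11.7, 12.5 and 13.7 CPM in mutants. The groups did not overlap, and mutant replicate 3 was highest. From 10.3 ± 0.65 to 12.7 ± 1.02 CPM, the log2 fold change was 0.30 (standard error 0.09, 95% interval 0.10 to 0.50, adjusted *P* = 0.437, edgeR).

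*Bid*, on chromosome 6 from 120891930 to 120916853, links both routes, since its protein is cut by caspase 8 and then activates BAX. It had 20.8, 20.3 and 18.9 CPM in WT and 21.8, 20.5 and 20.7 CPM in mutants, so the groups overlapped, with WT replicate 3 lowest. The log2 fold change of 0.07 had a 95% interval from -0.07 to 0.21 (adjusted *P* = 0.793, edgeR). Exons of *Bid* share 628 bases with exons of *Bcl2l13* on the opposite strand in the annotation used here. How reads there were counted depends on the strand setting, which is not given in the sources used here. *Bcl2l13* had a log2 fold change of -0.07.

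*Apaf1* encodes the scaffold of the apoptosome. It lies on chromosome 10 from 90989311 to 91082770 and was at 73.5, 77.2 and 83.5 CPM in WT and 70.4, 76.2 and 81.9 CPM in mutants. The groups covered nearly the same range. Its log2 fold change was -0.04 (95% interval -0.19 to 0.12, adjusted *P* = 0.909, edgeR), so a change as large as that of *Bax* upward lies outside the interval.

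**Figure D2:**
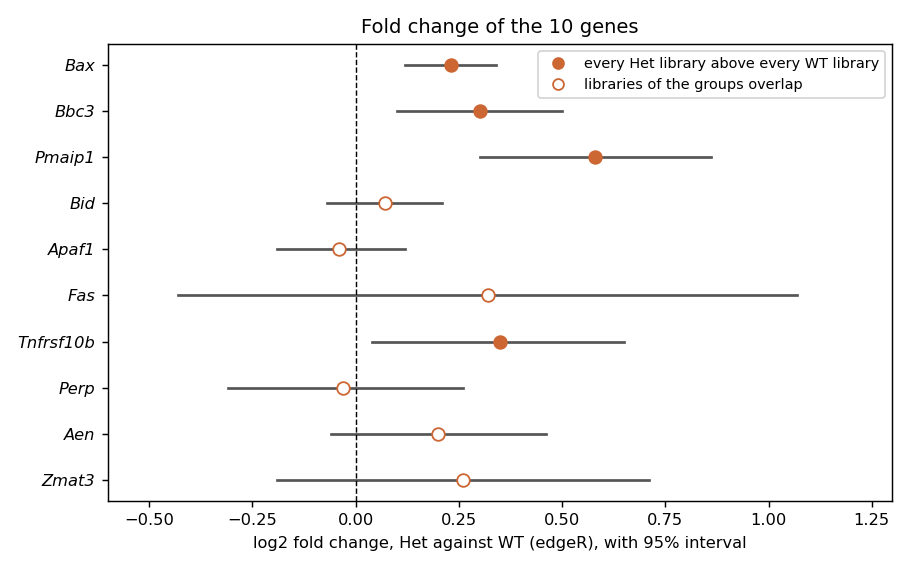
Log2 fold change of mutant against WT for the 10 genes (points) with the 95% interval of edgeR's quasi-likelihood fit (lines), filled where every mutant library lies above every WT library. The intervals of *Pmaip1*, *Bax*, *Bbc3* and *Tnfrsf10b* lie above 0, and the widest, of *Fas*, runs from -0.43 to 1.07.

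The death receptors were *Tnfrsf10b* and *Fas*. *Tnfrsf10b*, on chromosome 14 from 69767472 to 69784411, encodes the mouse receptor for the ligand TRAIL. It was at 9.06, 9.03 and 6.92 CPM in WT and at 9.76, 12.2 and 9.78 CPM in mutants. The groups did not overlap, but WT replicate 1 and mutant replicate 1 were close, WT replicate 3 was low and mutant replicate 2 was high. Means were 8.34 ± 1.23 and 10.6 ± 1.43 CPM, with a log2 fold change of 0.35 (standard error 0.13, 95% interval 0.04 to 0.65, adjusted *P* = 0.535, edgeR). It was 0.23 without WT replicate 3 and 0.22 without mutant replicate 2, with unadjusted *P* of 0.105 and 0.142 (edgeR). With the Y-linked level as a covariate it was 0.05, where those of *Pmaip1*, *Bbc3* and *Bax* were 0.57, 0.30 and 0.17.

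*Fas*, on chromosome 19 from 34290666 to 34327772, was barely covered, with 6, 12 and 6 counts in the WT libraries and 9, 20 and 13 counts in the mutant libraries. These are 0.165, 0.204 and 0.162 CPM in WT and 0.213, 0.263 and 0.196 CPM in mutants. The groups overlapped, and a difference was not detectable at this depth, since the 95% interval of the log2 fold change of 0.32 runs from -0.43 to 1.07 (adjusted *P* = 0.840, edgeR). DESeq2 gave *Fas* no adjusted *P*. The ligand genes *Fasl*, *Tnfsf10*, which encodes TRAIL, and *Tnf* did not pass the filter on low counts.

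The remaining genes act in other ways. *Zmat3*, on chromosome 3 from 32334792 to 32366014, encodes a zinc finger protein that binds RNA. It was at 38.2, 23.9 and 26.5 CPM in WT and at 33.3, 33.6 and 38.6 CPM in mutants. WT replicate 1 thus lay within the mutant range, and the other WT libraries lay below it. With means of 29.5 ± 7.66 and 35.2 ± 3.00 CPM, its log2 fold change came to 0.26 (standard error 0.18, 95% interval -0.19 to 0.71, adjusted *P* = 0.738, edgeR). It was 0.48 without WT replicate 1, the library with the most RNA of visceral endoderm markers (unadjusted *P* = 0.000369, adjusted *P* = 0.214, edgeR), and 0.12 without WT replicate 2.

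*Aen*, on chromosome 7 from 78895854 to 78911209, encodes a nuclease that takes part in P53-dependent apoptosis. Its levels were 92.5, 87.8 and 68.9 CPM in WT and 100.3, 88.9 and 97.2 CPM in mutants. WT replicate 3 was low, WT replicate 2 lay just below the lowest mutant library, and WT replicate 1 lay within the mutant range. The log2 fold change of 0.20 (95% interval -0.06 to 0.46, adjusted *P* = 0.675, edgeR) was 0.08 without WT replicate 3 and 0.28 without WT replicate 1.

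*Perp*, on chromosome 10 from 18845020 to 18857073, encodes a membrane protein of desmosomes and is also a target of P63 in epithelia. It was at 4.97, 4.99 and 6.03 CPM in WT and at 4.71, 5.13 and 5.81 CPM in mutants, and the groups overlapped. Its log2 fold change was -0.03 (95% interval -0.31 to 0.26, adjusted *P* = 0.973, edgeR). Surface ectoderm markers, which include the desmosome gene *Dsp*, summed to 436, 558 and 567 CPM in WT and 552, 567 and 559 CPM in mutants.

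**Figure D3:**
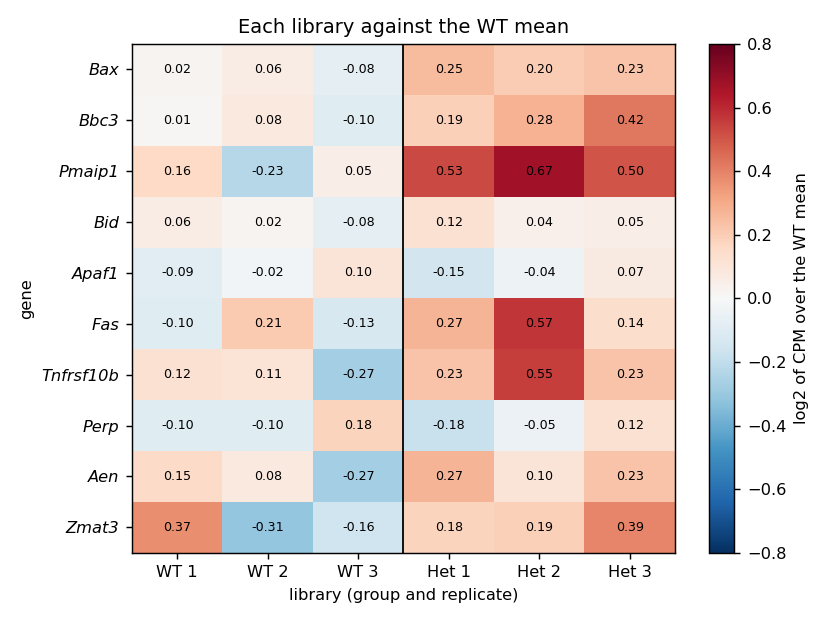
Log2 of the level of each gene in each library over the mean of the WT libraries (color and number), with genes as rows and libraries as columns. In the mutant libraries 8, 8 and 10 of the 10 genes are above the WT mean, and *Pmaip1* has the highest value in each of them.

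Counted by library, 7, 6 and 3 of the 10 genes were above the WT mean in WT replicates 1, 2 and 3, and 8, 8 and 10 in mutant replicates 1, 2 and 3. The median of the 10 genes relative to the WT mean was 0.04, 0.04 and -0.09 (log2) in WT and 0.21, 0.20 and 0.23 in mutants. The mutant libraries were thus alike in this median. Among the mutant libraries *Bax*, *Bid* and *Aen* were highest in replicate 1, *Pmaip1*, *Fas* and *Tnfrsf10b* in replicate 2, and *Bbc3*, *Apaf1*, *Perp* and *Zmat3* in replicate 3. Without WT replicate 1, 7 of the 10 genes had every mutant library above the WT libraries that were left (*Bid*, *Aen* and *Zmat3* in addition), where 14.9% of tested genes did. In that fit 6 were at an unadjusted *P* under 0.05 and higher, *Aen* and *Zmat3* in addition, where 5.54% of genes were (edgeR). With the Y-linked level as a covariate 2 were, *Bax* and *Pmaip1*, where 1.79% of genes were.

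Per length, the 10 genes covered a wide range. *Bax* was highest, with 43.7 ± 2.27 CPM per kilobase of exon (SD, n = 3) in WT, followed by *Aen* (14.3 ± 2.15) and *Apaf1* (8.65 ± 0.56). *Bid*, *Bbc3*, *Perp*, *Zmat3*, *Pmaip1* and *Tnfrsf10b* lay between 5.63 and 1.53, and *Fas* was lowest at 0.0859 ± 0.0114. The genes with separated groups were found along most of this range, at the top (*Bax*), in the middle (*Bbc3*) and low (*Pmaip1* and *Tnfrsf10b*). Of neighbours in this order, *Perp* and *Zmat3* had overlapping WT libraries, as did *Pmaip1* and *Tnfrsf10b*. In mutants *Bax* was at 51.1 ± 0.80, *Aen* at 16.5 ± 1.01 and *Pmaip1* at 2.54 ± 0.16, all in CPM per kilobase of exon.

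**Figure D4:**
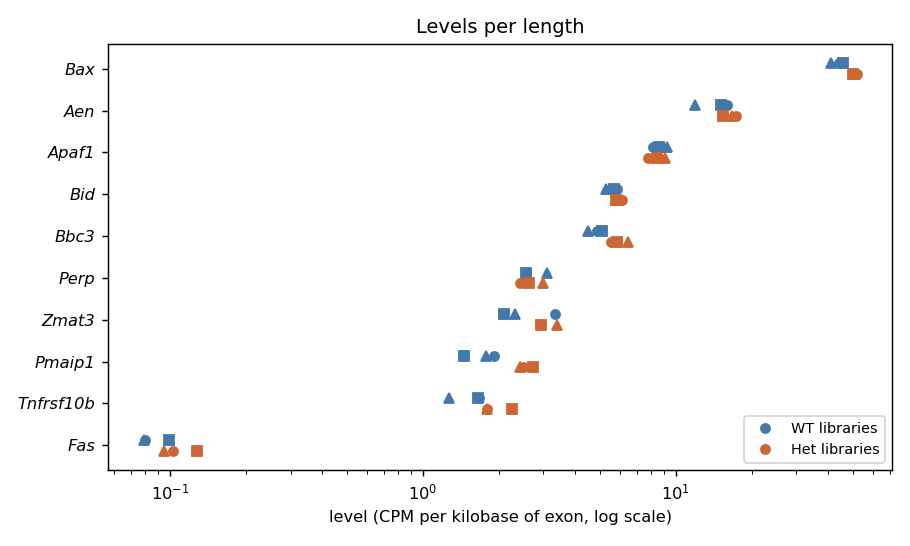
Level of the 10 genes in CPM per kilobase of exon (log axis) in the WT (blue) and mutant (orange) libraries, ordered by the WT mean. *Bax* is highest, and *Fas* is lowest at under 0.2 in every library.

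*Trp53*, which encodes P53, was at 155 ± 14.3 CPM in WT and 154 ± 7.44 CPM in mutants. Of 20 listed symbols for P53 and its regulators 19 were in the count table and 18 were tested. With edgeR 0 were past the threshold. At an unadjusted *P* under 0.05, 3 were higher and 2 were lower (edgeR), where 4.34% and 4.09% of all tested genes were. *Mdm2*, which encodes the ubiquitin ligase that degrades P53 and is itself a target, had a log2 fold change of 0.22 (95% interval 0.08 to 0.35). Its mutant libraries were all above WT, as in 8.32% of all tested genes. *Atm*, the kinase that signals DNA breaks to P53, had a log2 fold change of -0.29 (95% interval -0.51 to -0.08), with overlapping libraries.

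Of 20 other P53 targets tied to apoptosis, 19 were tested and 0 were past the threshold with edgeR, while 4 were with DESeq2, *Phlda3*, *Eda2r*, *Trp53inp1* and *Sesn2*. At an unadjusted *P* under 0.05, 7 were higher and 1 was lower (edgeR), where 4.34% and 4.09% of all tested genes were. The list was chosen with earlier results of these data known, so these counts are not independent of that choice. The median log2 fold change was 0.08. *Phlda3*, which restrains AKT signaling, was at 3.49 ± 0.63 CPM in WT and 10.3 ± 1.81 CPM in mutants (log2 fold change 1.57 with an adjusted *P* of 0.0599, edgeR). *Eda2r*, of the TNF receptor family, was at 6.19 ± 1.39 and 25.1 ± 5.27 CPM (log2 fold change 2.02 with an adjusted *P* of 0.182, edgeR). *Trp53inp1*, which encodes a cofactor of P53, was at 27.2 ± 2.20 and 45.2 ± 9.59 CPM (log2 fold change 0.73 with an adjusted *P* of 0.424, edgeR). These 3 fold changes were above the highest among the 10 genes, the 0.58 of *Pmaip1*. The difference between the lists was not tested.

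The general machinery of apoptosis was examined in 7 lists with 57 genes, of which 48 were tested. With edgeR 0 were past the threshold. At an unadjusted *P* under 0.05, 3 were higher and 1 was lower (edgeR), where 4.34% and 4.09% of all tested genes were. The median log2 fold change was -0.01, with 19 genes above 0 and 29 below, and with DESeq2 none was past the threshold either. The 6 tested caspases had log2 fold changes from -0.09 (*Casp2*) to 0.06 (*Casp8*). Caspases are made as inactive precursors, and cleavage is not seen at the RNA level. The 8 genes of proteins released from mitochondria and of VDAC channels ranged from -0.05 to 0.08, and *Cycs*, which encodes cytochrome c, was at 0.06 (95% interval -0.03 to 0.16). *Vdac1*, which encodes a channel of the outer membrane, was at 0.05 (95% interval -0.03 to 0.12). In both genes every mutant library was above WT, as in 8.32% of all tested genes. Over all 48 genes the range was -0.66 to 0.83, and that of the 10 P53 targets was -0.04 to 0.58.

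Within the BCL2 family, 9 proapoptotic genes outside the 10 were tested, with a median of -0.02. Among them *Bik*, a BH3-only gene at 1.18 CPM in WT, had a log2 fold change of 0.46 (95% interval 0.03 to 0.89), and *Bcl2l14*, at 0.401 CPM, one of -0.66 (95% interval -1.45 to 0.14). Of 8 antiapoptotic genes 4 were tested, with *Bcl2l2* at 0.20 (95% interval 0.04 to 0.35) and *Bcl2* at 0.06 (95% interval -0.09 to 0.22). The ratio of *Bax* to *Bcl2* counts, a measure chosen after the values were seen, was 2.65, 2.58 and 2.27 in WT and 3.10, 2.72 and 2.62 in mutants. The ratios overlapped between the groups (exact permutation test, two-sided, *P* = 0.2).

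The IAP and NAIP family, a list that holds inhibitors of caspases, had 6 tested genes with a median of 0.01. *Naip2* had a log2 fold change of 0.83 (95% interval 0.07 to 1.58) and was under 0.4 CPM in every library. *Birc2* was at -0.10 (95% interval -0.23 to 0.02). In the death receptor pathway, 10 of 13 genes were tested, with a median of -0.03. *Tnfrsf21*, which encodes death receptor 6, had a log2 fold change of -0.15 (95% interval -0.27 to -0.03). Its mutant libraries were all below WT, as in 6.92% of all tested genes. *Fadd*, the adaptor of FAS, had a log2 fold change of -0.11 (95% interval -0.32 to 0.10). *Dffb* and *Dffa*, the nuclease that cuts DNA in dying cells and its inhibitor, had 0.18 (95% interval -0.02 to 0.37) and 0.09 (95% interval -0.02 to 0.21).

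**Figure D5:**
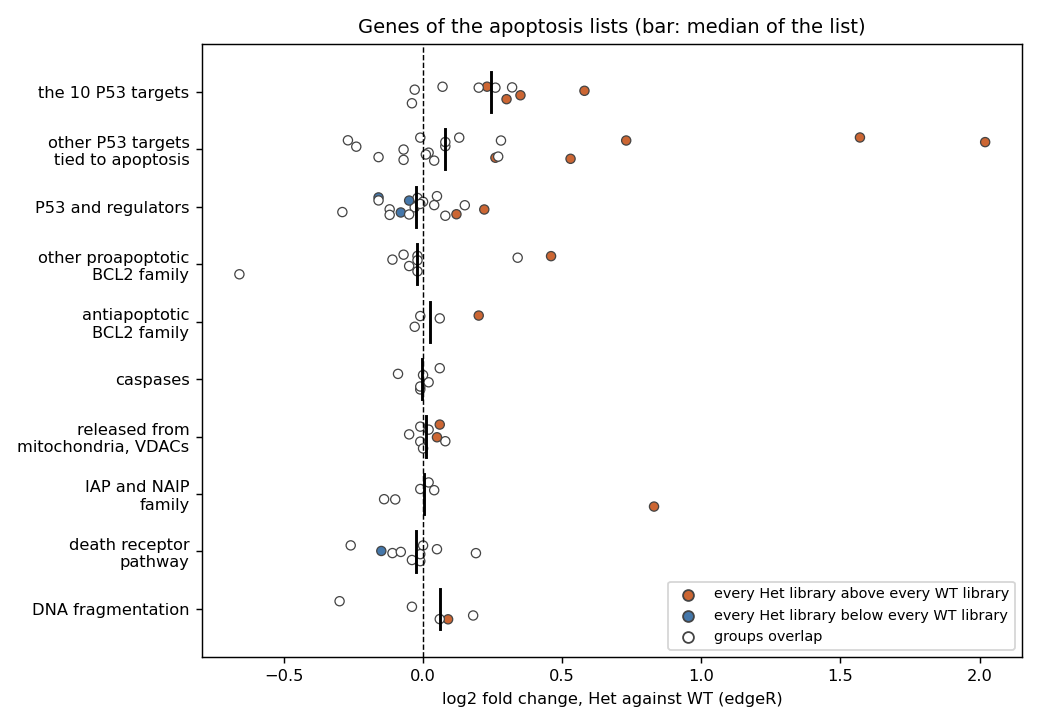
Log2 fold change of mutant against WT for every tested gene of the 10 P53 targets and of each other list (points, orange or blue where every mutant library lies above or below every WT library) with the median of the list (bar). The median of the 10 P53 targets is 0.24, and those of the 7 machinery lists lie between -0.03 and 0.06.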

How the data were processed

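RNA was depleted of ribosomal RNA, made into stranded libraries and sequenced with paired reads. The authors aligned the trimmed reads to mm10 (STAR) and summed them by gene. The paper names HTSeq and Gencode M2, GEO's processing notes name featureCounts, and the strand setting is not given in the sources used here. The deposited values are raw counts per gene symbol.

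Counts of all 6 libraries (24421 symbols) were scaled with TMM in edgeR (version 4.0.16, R version 4.3.3). The 15584 genes kept by filterByExpr were tested with the robust quasi-likelihood test, mutant against WT, two-sided, without covariates, at a Benjamini-Hochberg adjusted *P* of 0.05 over all tested genes. CPM use the TMM-scaled library sizes. Standard errors were derived from the fold change and the test statistic, and 95% intervals use the fit's degrees of freedom. DESeq2 (version 1.42.0) was an alternative. The fits were also run on simulated counts without differences in sex or tissue between pools, and those results are not reported here. Positions and exonic lengths come from Gencode M21 (mm10), later than the authors' annotation, so levels per length are approximate. No pair of libraries was a copy (chi-square per degree of freedom at least 10.2). Figures were drawn with matplotlib (version 3.10.9).

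The members and lists were chosen with earlier results of these data known. Genes named are the 10 members, *Snrpb*, *Trp53*, and of each other list those past the threshold or else the 2 with the smallest unadjusted *P*. Other genes named (*Bcl2l13*, *Dsp*, the ligands, *Trp53inp1*, *Sesn2*) were chosen after their values were seen, and *Gm45808* was named for its overlap with *Bax*. Alternatives were DESeq2, a likelihood ratio test, other scalings and filters, a block for the replicate number, a covariate for Y-linked expression (mean log2 CPM over 4 genes), and each library left out.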

Additional observations from a re-analysis of the deposited data

How the results depend on the processing

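Under 14 alternatives, the log2 fold changes of *Pmaip1* (0.47 to 0.66), *Bax* (0.17 to 0.26), *Bbc3* (0.23 to 0.35), *Tnfrsf10b* (0.05 to 0.41), *Zmat3* (0.12 to 0.48), *Aen* (0.08 to 0.28), *Bid* (0.02 to 0.09) and *Fas* (0.01 to 0.35) kept their sign wherever they were tested. *Fas* was not tested with 10 counts required in every library or without WT replicate 2 or mutant replicate 2 or 3. DESeq2 called 2 of the 10 genes, *Pmaip1* (0.58) and *Bax* (0.22), and 4 of the other lists. The likelihood ratio test called 1, *Pmaip1* (0.58), and 3 of the other lists, and without a filter 1 gene of the other lists was called. The 6 fits that each left out 1 library called 0 of the 10 genes and 0 to 3 of the other lists (3 without mutant replicate 1). With the Y-linked level as a covariate, the median was 0.13, 2 of the 10 genes had an unadjusted *P* under 0.05 (both higher), *Apaf1* was at 0.08 and *Perp* at 0.19. Leaving out 1 library gave a median from 0.18 to 0.27, 3 to 6 genes higher at an unadjusted *P* under 0.05 and 4 to 7 genes with separated groups (7 without WT replicate 1). Over all tested genes these fits had 2.72% to 5.54% higher at that *P* and 11.7% to 15.0% with separated groups. In these fits *Apaf1* ran from -0.10 to 0.02, *Perp* from -0.12 to 0.07 and *Snrpb* from -0.03 to 0.02, and *Snrpb* was at 0.01 with library size only. The cause of these changes was not tested.

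Deviations from the group means correlated by 0.096, 0.008 and 0.292 between WT and mutant libraries of the same replicate number. Between libraries of different numbers they correlated by -0.225 to 0.081. Whether the replicate numbers pair the libraries was not tested. With the replicate block the median of the 10 genes was 0.26, none of the 10 was past the threshold (0 genes), 4 had an unadjusted *P* under 0.05 and were higher (edgeR, 4.39% of all tested genes), and the block changed no call. For *Fas* the depth of 6 to 20 counts per library limits the precision. For the other genes the parts of depth and of the spread between pools were not separated.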
